A study of Mus musculus with 12 samples.

Results

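The genes described here carry fatty acids from circulating triglyceride into fat cells. They are Lpl, Gpihbp1, Lmf1, Angptl4, Cd36, Fabp4, Fabp5, Slc27a1, Slc27a4 and Acsl1, 10 genes chosen by symbol among 33200 gene identifiers, of which 16656 had enough counts to be tested. All 10 matched 1 identifier each and passed the filter on low counts. They were measured by poly(A) RNA sequencing of the inguinal white fat of mice (iWAT), which lies under the skin. The 3 wild-type mice were C57BL/6, and in the 3 knockout (KO) mice CRISPR/Cas editing had knocked out Nrep, the gene of neuronal regeneration related protein, throughout the body. All mice were 16 weeks old and ate a standard maintenance diet, and every cell type of the tissue carried the knockout. Liver samples of the same study, 6 in number, were not used here. The sources used here do not give the founder lines behind the KO mice or the sequence that was edited. The libraries are labelled as biological replicates.

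Lipoprotein lipase (Lpl) is made by adipocytes and hydrolyses the triglyceride of lipoproteins at the capillary wall. Lmf1, a factor of the endoplasmic reticulum, helps it fold, Gpihbp1 on capillary endothelium carries it across and holds it there, and Angptl4, secreted by adipocytes and induced by fasting, inactivates it. The released fatty acids are taken up with Cd36, bound by the carriers Fabp4 and Fabp5 and activated to acyl-CoA by Acsl1 and by the transport proteins Slc27a1 and Slc27a4. From textbook knowledge the genes were set in 4 classes. Lpl, Angptl4, Slc27a1 and Acsl1 were taken as adipocyte-expressed and Gpihbp1 as endothelial, while Cd36, Fabp4 and Fabp5 are expressed in both cell types and Lmf1 and Slc27a4 broadly.

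Library totals lay between 17970451 and 20369345 estimated counts. Nrep had 1404, 1640 and 1300 counts in the wild-type libraries and 2, 2 and 5 in the KO libraries; here and below, 3 values of a group are given in the order of replicates 1, 2 and 3. Adipocyte and endothelial markers were present in every library, as with Adipoq at 1306 CPM (counts scaled to library size) or more and Pecam1 at 343 or more. The summed level of 14 tested skeletal muscle markers was 30.0 to 33.0 CPM in wild type and 4486, 763 and 4131 CPM in KO replicates 1, 2 and 3. Muscle also expresses Lpl, Cd36, Slc27a1 and Acsl1. What muscle tissue, with its capillaries, added to the values of these or the other genes, Gpihbp1 among them, was not tested. Fabp3, a fatty acid carrier of muscle, named here after its values were seen, had 2.82, 0.840 and 15.7 CPM in wild type and 4.82, 1.23 and 10.6 CPM in KO. The groups overlapped for Fabp3, whereas 12 of the 14 tested muscle markers were called higher in KO. The summed level of 7 tested brown and beige fat markers was 164, 75.9 and 202 CPM in wild type and 306, 199 and 428 CPM in KO. Which cells gave the Fabp3 values was not tested. The KO library with the least muscle signal, replicate 2, was also the KO library with the lowest adipocyte marker level. The summed level of 15 macrophage markers was 3172 to 4638 CPM in wild type and 2292 to 2502 CPM in KO, and macrophages express Lpl, Cd36, Fabp4 and Fabp5 as well; their part in these values was not tested.

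All 10 genes had a higher mean in KO, but only Gpihbp1 passed the test, where the difference was 2.33-fold. The other 9 had fold changes between 1.15 and 2.13 with adjusted p between 0.0777 and 0.422 in edgeR's quasi-likelihood test. Over all tested genes, 0.865% were called higher and 0.162% lower at an adjusted p of 0.05. The median log2 fold change was 0.82 over the 10 genes and -0.06 over all 16656 tested genes. In 6 of the 10, Gpihbp1, Acsl1, Slc27a1, Fabp4, Fabp5 and Lmf1, every KO library lay above every wild-type library, and in Lpl, Cd36, Angptl4 and Slc27a4 the groups overlapped. Over all tested genes, 15.2% had KO above wild type without overlap and 13.1% below. In DESeq2, 7 of the 10 were called higher, against 7.34% of all tested genes, and in limma-voom 0 were called. At an unadjusted p under 0.05, 8 of the 10 were higher in edgeR and 8 in limma-voom, against 12.8% and 12.4% of all tested genes. Without KO replicate 2, edgeR called 9 of the 10, against 14.5% of all tested genes, and without any other single library it called 0.

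**Figure D1:**
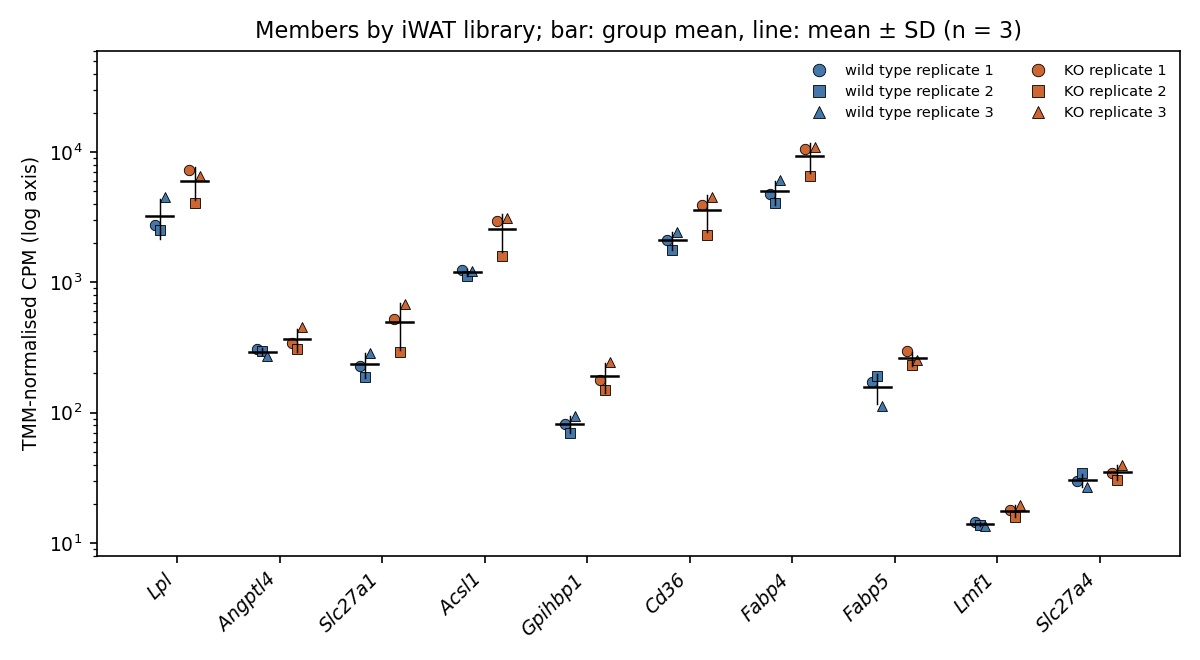
TMM-normalised CPM of each gene (log axis) in the 3 wild-type and 3 KO libraries, with group means as bars and mean ± SD as lines. KO replicate 2 is the lowest KO library for all 10 genes, and the groups do not overlap in 6 of them.

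Gpihbp1 (ENSMUSG00000022579, on chromosome 15), the capillary anchor of the lipase, had 82.3, 69.3 and 95.02 CPM in wild type and 179, 149 and 246 CPM in KO. The lowest KO library stood above the highest wild-type library. Relative to the wild-type mean, KO replicates 1, 2 and 3 stood at 2.17, 1.81 and 2.99 times. Mean Gpihbp1 rose, with 82.2 ± 12.9 CPM in wild type and 191 ± 49.7 CPM in KO (SD, n = 3 each). On the log2 scale the rise was 1.22 (SE 0.212, 95% interval 0.73 to 1.71, edgeR adjusted p = 0.0485). The call sat close to the threshold. It was lost in limma-voom (adjusted p = 0.0652), without wild-type replicate 3 (0.0505), with genes kept from 1 CPM in 3 libraries (0.0518) and with the muscle markers removed (0.0515), and the adjusted p was 0.0868 to 0.217 when KO replicate 1 or 3, or wild-type replicate 1 or 2, was left out. With KO replicate 2 left out it was 0.00381. The fold change itself stayed between 0.99 and 1.43 on the log2 scale over all 16 alternatives.

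Lpl, the enzyme, had 2750, 2508 and 4501 CPM in wild type and 7310, 4053 and 6521 CPM in KO. Wild-type replicate 3 lay above KO replicate 2, so the groups overlapped. The means were 3253 ± 1087 and 5961 ± 1699 CPM (SD, n = 3 each), a log2 difference of 0.87 with a 95% interval of 0.12 to 1.62 (edgeR adjusted p = 0.168). Lmf1, the maturation factor, was at a far lower level, with 14.5, 13.6 and 13.6 CPM in wild type and 17.8, 15.8 and 19.6 CPM in KO. Its groups did not overlap, and its log2 difference was 0.35 (interval 0.04 to 0.66, adjusted p = 0.180).

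Angptl4, the inhibitor, had 307, 299.8 and 274 CPM in wild type and 343, 306 and 451 CPM in KO. KO replicate 2 lay within the wild-type range, and KO replicate 3 stood apart from the other libraries. The log2 difference was 0.32, with an interval of -0.09 to 0.73 (edgeR adjusted p = 0.314). As a fold, that interval runs from 0.940 to 1.66.

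The ratio of inhibitor to enzyme was taken within each library, as log2 CPM of Angptl4 minus that of Lpl. It was -3.16, -3.06 and -4.04 in wild type and -4.41, -3.73 and -3.85 in KO. KO replicate 1 had the lowest ratio and wild-type replicate 3 the next lowest, so the groups overlapped (difference -0.58, exact permutation p = 0.3, two-sided). For Gpihbp1 to Lpl the difference was 0.32 (exact permutation p = 0.3), for Lmf1 to Lpl it was -0.53 (exact permutation p = 0.2) and for Fabp5 to Fabp4 -0.14 (exact permutation p = 0.7). All 4 ratios overlapped between the groups. With 3 against 3 libraries this test cannot go below 0.1, and adjusted over the 4 ratios the values were 0.4 or 0.7.

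**Figure D2:**
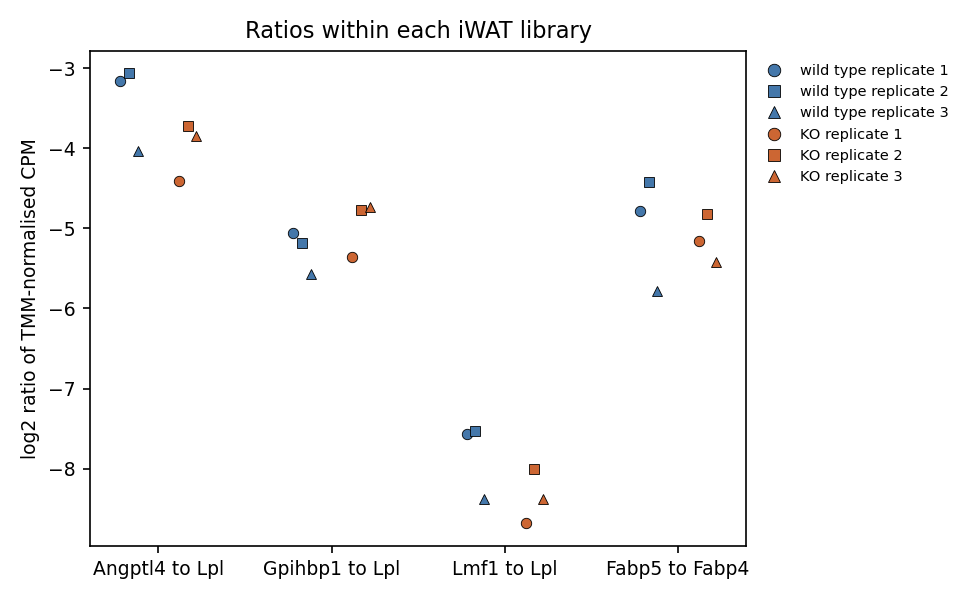
Log2 ratio of TMM-normalised CPM within each library for 4 pairs of genes; each point is a library. In every pair the wild-type and KO points overlap, and wild-type replicate 3 lies below the other wild-type libraries.

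Acsl1, the main long-chain acyl-CoA synthetase of adipocytes, came second to Gpihbp1 by p-value among the 10. It had 1251, 1110 and 1220 CPM in wild type and 2939, 1600 and 3106 CPM in KO. The 3 wild-type libraries lay close together, and all 3 KO libraries lay above them, at 2.46, 1.34 and 2.60 times the wild-type mean. KO replicate 2, the lowest of these, was also the KO library with the lowest muscle and adipocyte marker levels. The means were 1194 ± 74.0 and 2548 ± 825 CPM (SD, n = 3 each), a log2 difference of 1.09 (SE 0.272, interval 0.47 to 1.72) that did not pass the test (edgeR adjusted p = 0.0777).

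RefSeq promoter windows were found for 5 of the 10 genes, Acsl1, Slc27a1, Slc27a4, Cd36 and Lmf1. They give Acsl1 2 start sites, and the counts, which are per gene, cannot tell these apart. The 250 bases before each are shown, chosen after their makeup was seen, beside those of Slc27a4, the gene with the smallest fold change here. Each is printed from 5′ to 3′ on the gene's plus strand, from RefSeq on GRCm38.p6, and the capitals mark the GC box GGGCGG or the CCAAT box (CCAAT, or ATTGG on the other strand). No source used here ties the iWAT counts to a build, so these coordinates are RefSeq's alone.
Acsl1, upstream start, chr8:46470787-46471036: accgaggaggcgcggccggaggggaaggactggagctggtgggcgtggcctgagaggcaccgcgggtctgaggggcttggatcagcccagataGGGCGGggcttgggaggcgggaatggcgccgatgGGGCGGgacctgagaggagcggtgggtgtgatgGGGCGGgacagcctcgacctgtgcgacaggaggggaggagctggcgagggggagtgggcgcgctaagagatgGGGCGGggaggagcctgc
Acsl1, downstream start, chr8:46490716-46490965: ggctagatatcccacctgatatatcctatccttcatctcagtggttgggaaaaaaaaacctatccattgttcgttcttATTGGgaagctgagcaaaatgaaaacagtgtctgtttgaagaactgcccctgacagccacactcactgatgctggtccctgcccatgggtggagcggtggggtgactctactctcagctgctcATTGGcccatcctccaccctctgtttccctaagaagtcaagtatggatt
Slc27a4, chr2:29802384-29802633: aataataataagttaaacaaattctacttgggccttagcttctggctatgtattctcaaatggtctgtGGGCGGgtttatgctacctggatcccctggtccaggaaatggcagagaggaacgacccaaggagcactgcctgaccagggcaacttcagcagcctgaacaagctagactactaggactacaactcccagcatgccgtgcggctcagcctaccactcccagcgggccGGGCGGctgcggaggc
The upstream Acsl1 window had a GC content of 72% and 4 GC boxes, and the downstream window had 48.4% and 2 CCAAT boxes with 0 GC boxes. The Slc27a4 window had 54.4% and 2 GC boxes. Of 32851 windows of this length, 32.7% held a GC box and 33.8% a CCAAT box on either strand. None of the 3 windows held AGGTCA, the core motif of nuclear receptors, which 14% of all windows held, nor the TATA box TATAAA (12.4%) or the E-box CACGTG (6.02%). Among the windows not shown, that of Cd36 held AGGTCA on the other strand, and a Slc27a1 window held the E-box.

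Slc27a1, an adipocyte fatty acid transport protein, had 228, 186 and 289 CPM in wild type and 524, 293 and 681 CPM in KO. Its lowest KO library, replicate 2, was only just above its highest wild-type library, replicate 3. The log2 difference was 1.09 (SE 0.314, interval 0.36 to 1.82, edgeR adjusted p = 0.102). Slc27a4, the related and more broadly expressed protein, had 29.8, 34.3 and 27.1 CPM in wild type and 34.6, 30.4 and 40.0 CPM in KO. Its groups overlapped, and the interval of its log2 difference, 0.20, ran from -0.13 to 0.54 (adjusted p = 0.422). Whether these 2 proteins differ in their response was not tested.

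Cd36, the scavenger receptor that speeds fatty acid uptake in adipocytes and capillaries, had 2107, 1776 and 2431 CPM in wild type and 3926, 2319 and 4485 CPM in KO. KO replicate 2 lay below wild-type replicate 3, while the other KO libraries were well above all wild-type ones. The log2 difference was 0.76 (interval 0.11 to 1.42, edgeR adjusted p = 0.166).

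Fabp4, the fatty acid carrier of adipocytes and of capillary endothelium, was the most abundant of the 10 in every library, per length of transcript as well. It had 4780, 4085 and 6146 CPM in wild type and 10601, 6533 and 10906 CPM in KO, and took 0.430% to 0.641% of all wild-type counts and 0.674% to 0.992% of all KO counts. The groups did not overlap. The log2 difference was 0.90 (interval 0.23 to 1.57, edgeR adjusted p = 0.127). Fabp5, its relative in adipocytes, endothelium and macrophages, had 173, 190 and 112 CPM in wild type and 296, 232 and 255 CPM in KO. Here wild-type replicate 3 was the lowest of the 6 libraries, where for Lpl, Cd36, Fabp4, Slc27a1 and Gpihbp1 it was the highest wild-type library. The log2 difference of Fabp5 was 0.72 (interval 0.22 to 1.22, adjusted p = 0.108).

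**Figure D3:**
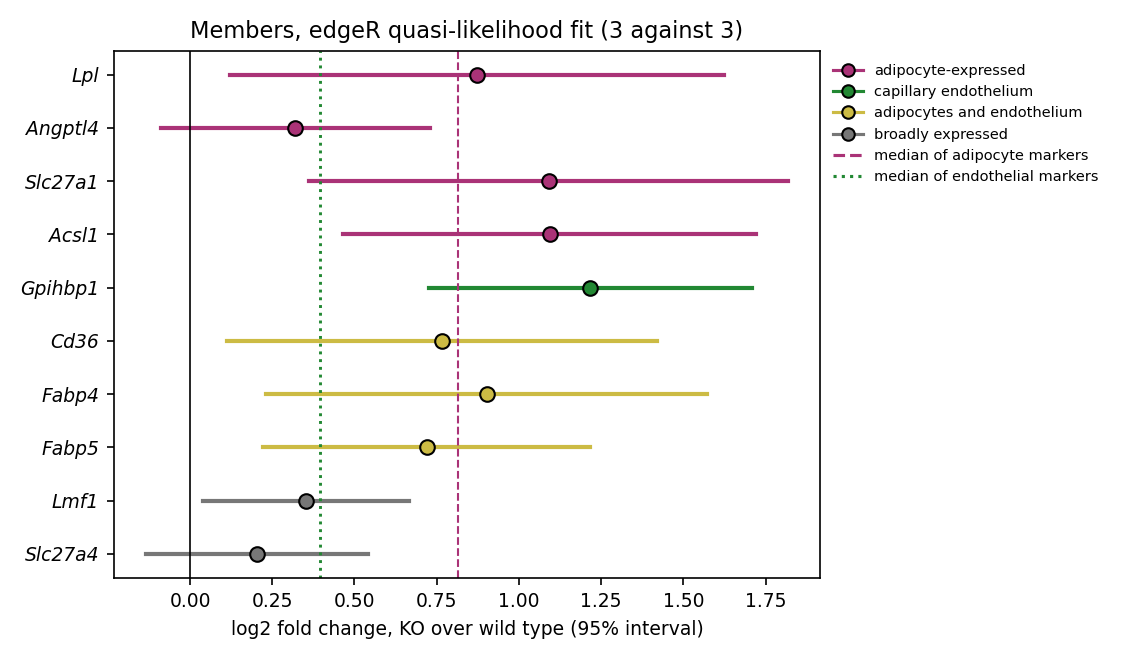
Log2 fold change of each gene, KO over wild type, with its 95% interval from edgeR, coloured by where the gene is expressed; the dashed and dotted lines are the medians of the adipocyte markers (0.81) and endothelial markers (0.39). The intervals of Angptl4 and Slc27a4 span 0, and the Gpihbp1 interval lies right of the endothelial median.

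Levels were compared between genes as CPM per kb of the principal transcript in GENCODE M21, a scale that ignores other isoforms. In wild type the order of mean levels was Fabp4 (5584 CPM per kb), Lpl (791), Cd36 (619), Acsl1 (306), Fabp5 (161), Gpihbp1 (99.7), Angptl4 (88.8), Slc27a1 (83.9), Slc27a4 (7.496) and Lmf1 (7.47). Lpl and Cd36 overlapped between libraries, at 610 to 1094 and 523 to 715 CPM per kb, and so did the neighbours from Fabp5 down to Slc27a1 and the pair at the bottom. Fabp4, the pair of Lpl and Cd36, and Acsl1 each stood clear of the genes below them in the wild-type libraries. In KO the order was Fabp4 (10432 CPM per kb), Lpl (1449), Cd36 (1052), Acsl1 (654), Fabp5 (265), Gpihbp1 (232), Slc27a1 (179), Angptl4 (111), Lmf1 (9.54) and Slc27a4 (8.64). Of neighbours in this order, only Fabp4 and Lpl, Acsl1 and Fabp5, and Angptl4 and Lmf1 did not overlap. Angptl4 was below Slc27a1 in each of the 3 KO libraries, at 104, 92.4 and 136 against 187, 105 and 244 CPM per kb, and above it in wild-type replicates 1 and 2. Together the 10 genes held 1.08% to 1.58% of wild-type counts and 1.60% to 2.43% of KO counts.

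To set apart adipocyte-expressed and endothelial-expressed genes, levels were also taken relative to markers of these cell types. Of 18 adipocyte markers, 18 had a positive log2 fold change, and the median was 0.81. Among them 2 passed the test (Slc2a4 and Rbp4, named after their values were seen), and 1 with the muscle markers removed. The part of muscle RNA in the adipocyte marker values was not tested. Of 18 endothelial markers, 17 were positive, 1 passed (Sox18, also named after its values were seen) and the median was 0.39. Among the most abundant, Cfd, Adipoq and Pnpla2 of adipocytes had log2 fold changes of 0.58, 0.66 and 0.70, and Pecam1, Cdh5 and Ptprb of endothelium 0.02, 0.54 and 0.75, without passing the test. The summed adipocyte marker level was 13668 to 15756 CPM in wild type and 17074 to 30360 CPM in KO, lowest in KO replicate 2. In bulk tissue, more cells of a type and more RNA per cell cannot be told apart.

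Against the mean log2 level of the endothelial markers in the same library, Gpihbp1 stood at 0.43, 0.11 and 0.47 in wild type and at 1.15, 0.88 and 1.28 in KO. The groups did not overlap, and the difference of 0.77 corresponds to 1.70-fold (exact permutation p = 0.1, the smallest possible for 3 against 3). No endothelial marker had a log2 fold change as high as that of Gpihbp1, the highest being 0.95 for Sox18. The endothelial fatty acid transport genes, described below, came closer, with a median of 0.67 and 14 of 17 positive. Their highest was 1.21 for Tcf15, named after its values were seen, at mean levels of 2.82 CPM in wild type and 6.53 CPM in KO. Some genes of this list, such as Cav1 and Pparg, are expressed in adipocytes as well. Whether Gpihbp1 differs from other capillary genes was not tested. Cd36, Fabp4 and Fabp5 against the endothelial markers differed by 0.30, 0.46 and 0.32, with overlap.

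Against the adipocyte markers, 7 of 9 genes overlapped between the groups. Acsl1 stood at 1.69, 1.68 and 1.57 in wild type and 2.14, 1.80 and 1.89 in KO, higher by 0.29 without overlap. Angptl4 stood at -0.33, -0.20 and -0.58 in wild type and -0.96, -0.59 and -0.89 in KO, lower by a difference of -0.44 without overlap, although the gap between wild-type replicate 3 and KO replicate 2 was narrow. Lpl, Cd36, Fabp4 and Fabp5 differed from the markers' change by 0.14, -0.02, 0.14 and 0.00, Slc27a1 by 0.29, and Lmf1 and Slc27a4 by -0.41 and -0.54. For Acsl1 and Angptl4 the exact permutation p was 0.1, and adjusted over all 13 such measures the smallest value was 0.371.

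**Figure D4:**
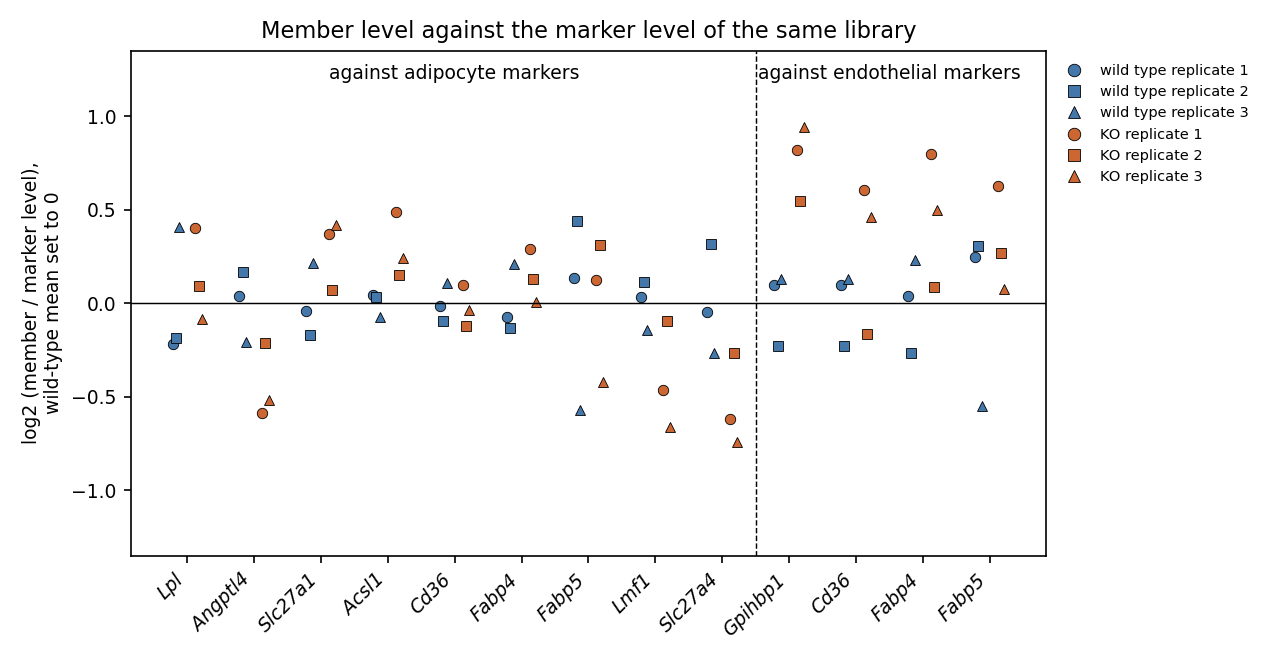
Log2 level of each gene minus the mean log2 level of the adipocyte markers (left) or endothelial markers (right) in the same library, with the wild-type mean set to 0; each point is a library. Gpihbp1 against endothelial markers and Acsl1 against adipocyte markers have all KO points above wild type, and Angptl4 has all KO points below.

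Other genes of the pathway were counted in 3 lists with 51 tested genes of 58. In edgeR 0 passed the test; 18 were higher and 2 lower at an unadjusted p under 0.05, where 12.8% of all tested genes were higher and 9.79% lower. DESeq2 called 13 higher, against 7.34% of all tested genes, and limma-voom called 0, with 18 higher and 1 lower at an unadjusted p under 0.05. The median log2 fold change was 0.15. Partners of the lipase were split, with 9 of 19 tested genes positive and a median of -0.02. The most abundant were Apoe, the apolipoprotein of remnant clearance (log2 fold change -0.02), the remnant receptor Lrp1 (-0.12), the basement membrane proteoglycan Hspg2 (0.32) and Sorl1, a sorting receptor of the lipase (-0.19), and in all of them the groups overlapped. Among the other carriers, transporters and acyl-CoA synthetases, 8 of 15 tested genes were positive. Dbi, the acyl-CoA binding protein, had 565, 489 and 535 CPM in wild type and 973, 672 and 1105 CPM in KO (log2 difference 0.79, edgeR adjusted p = 0.0879). Aqp7, the glycerol channel of adipocytes and capillaries, had 116, 99.8 and 142 CPM in wild type and 217, 156 and 269 CPM in KO (0.84, adjusted p = 0.0884). Both had all KO libraries above wild type, as did Scarb1, a lipoprotein receptor (0.28), while Acsl5, another acyl-CoA synthetase, had a log2 fold change of -0.33 with overlap.

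The endothelial fatty acid transport list had the highest median of the 3, a log2 fold change of 0.67. Of its 17 genes, 14 were positive. In 8 of them all KO libraries lay above wild type, against 15.2% of all tested genes. The same held for 10 of 18 endothelial markers and 13 of 18 adipocyte markers. Nrp2, named after its values were seen, had all KO libraries below wild type (log2 fold change -0.39). Cav1, the caveolar coat protein of endothelium and adipocytes, had 829, 843 and 856 CPM in wild type and 1375, 1048 and 1590 CPM in KO (0.67, edgeR adjusted p = 0.105). Aqp1, a capillary water channel, had 398, 429 and 465 CPM in wild type and 633, 618 and 840 CPM in KO (0.69, adjusted p = 0.0818). Cd300lg, a capillary surface protein, had 143, 141 and 199.9 CPM in wild type and 274, 228 and 351 CPM in KO (0.82, adjusted p = 0.0854). Pparg, the nuclear receptor of adipocytes and capillary endothelium, overlapped between the groups, with a log2 fold change of 0.38. The gene with the lowest p of this list was Vegfb, a ligand of the endothelial receptor Flt1, which was picked once the values were known. It had 34.0, 23.5 and 35.8 CPM in wild type and 59.9, 49.0 and 77.2 CPM in KO (1.00, adjusted p = 0.0630).

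**Figure D5:**
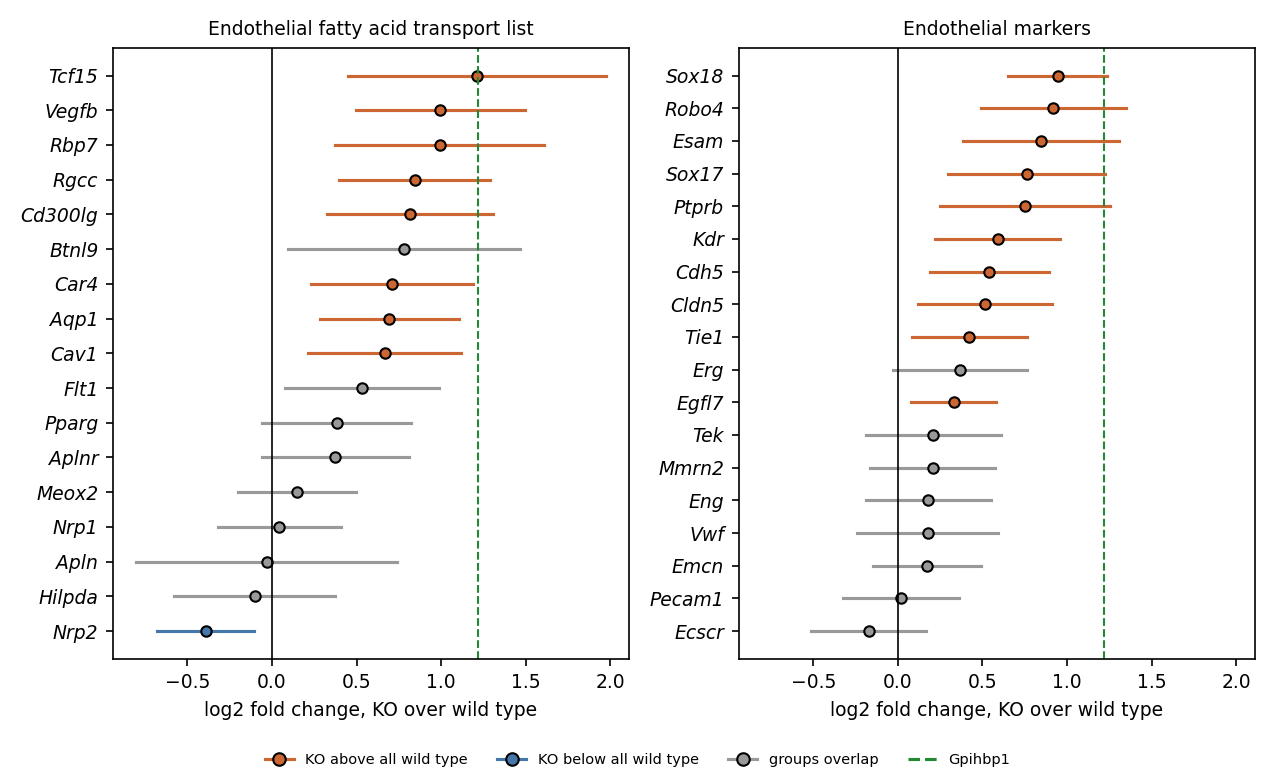
Log2 fold change (KO over wild type, with 95% interval) of the endothelial fatty acid transport list (left) and the endothelial markers (right), coloured by whether the groups overlap. The dashed line is Gpihbp1 at 1.22; the transport list runs from -0.39 to 1.21 and the markers from -0.17 to 0.95.

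Among 11200 other named genes with a mean of at least 5 CPM, those most like Lpl over the 6 libraries were Rgs5, Negr1 and Rida, with Pearson correlations of log2(CPM + 0.5) of 0.997 each. Those most like Gpihbp1 were Ablim3, Mettl22 and Thnsl2, each at 0.999. Those most like Angptl4 were Cd81, Lrp12 and Gaa, at 0.997, 0.997 and 0.994. Correlations above 0.95 were common, with 256, 636 and 143 genes for Lpl, Gpihbp1 and Angptl4, and the 6 libraries share the split by genotype.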

How the data were processed

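Gene values of the 6 iWAT libraries were deposited by the authors as estimated counts per gene, not normalised; 9.53% to 11.1% of the values were not whole, and all were rounded. The submitters' processing notes name fastp, featureCounts, GRCm38 and GRCm39 without saying which served the iWAT libraries. Symbols matched 26372 of 33200 identifiers (79.4%), and rows without one held 0.98% to 1.39% of counts.

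Genotype was tested with edgeR's quasi-likelihood method (edgeR 4.0.16, R 4.3.3) with TMM scaling, filterByExpr and a robust fit, two-sided, Benjamini-Hochberg adjusted over 16656 genes, called at 0.05. It was tested on simulated data. CPM are TMM-normalised. Levels against markers used log2(CPM + 0.5) and exact permutation tests. Alternatives were DESeq2 1.42.0, limma-voom (limma 3.58.1), other scalings, filters and thresholds, a replicate block, removal of muscle markers and leaving out each library.

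The members and lists were chosen with earlier results of these data known. Named by rule were the 10 members, Nrep, the 4 most abundant genes and any called gene of each pathway list, up to 3 genes per marker list, and the 3 genes most correlated with Lpl, Gpihbp1 and Angptl4.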

Additional observations from a re-analysis of the deposited data

How the results depend on the processing

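Over 16 alternatives, no log2 fold change of the 10 genes changed sign. The threshold of 0.10 and the non-robust fit leave the fold changes as they were, so they could not change a sign. Of 160 such values, 130 stayed on the same side of the threshold, 22 moved past it and 8, all of Gpihbp1, lost the call. Genes called overall were 171, and 1378 at an adjusted p of 0.10, 1370 with no filter, 104 with muscle markers removed, 16 in limma-voom, 1824 in DESeq2, and 1 to 4221 with a library left out, the highest without KO replicate 2. Of the 10 genes, 1 was called, and 2 at an adjusted p of 0.10, 6 with no filter, 0 from 1 CPM in 3 libraries, 0 with muscle markers removed, 0 in limma-voom, 7 in DESeq2, and 0 to 9 with a library left out. Of the other pathway genes, 0 were called, and 10 at an adjusted p of 0.10, 10 with no filter, 13 in DESeq2, and 0 to 19 with a library left out. The cause of these moves was not tested. Scaling by library totals alone moved the median over all tested genes by -0.13 on the log2 scale, and gave 129 genes called higher and 49 lower in place of 144 and 27.

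With the replicate number as a block, 1225 genes, 3 of the 10 and 13 other pathway genes were called. The libraries are labelled as biological replicates, and the numbers were not taken to pair the samples. Deviations of same-numbered libraries correlated at -0.01, 0.22 and 0.11. KO replicates 2 and 3 correlated best with the wild-type library of their own number, and KO replicate 1 with wild-type replicate 3, at 0.18. Whether the numbers mark pairs was not tested.

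With wild-type replicate 3 or KO replicate 1 left out, the difference in Angptl4 to Lpl was -0.885 or -0.369, in Gpihbp1 to Lpl 0.170 or 0.521, in Lmf1 to Lpl -0.808 or -0.371, and in Lpl against adipocyte markers 0.340 or 0.0022. Against endothelial markers, Cd36 ranged from 0.147 to 0.531, Fabp4 from 0.294 to 0.648 and Fabp5 from 0.0473 to 0.476 over the libraries left out, and Fabp4 against adipocyte markers from 0.0675 to 0.246. Acsl1 against adipocyte markers was 0.195 without KO replicate 1. Some small differences changed sign with a library left out. Cd36 against adipocyte markers ranged from -0.0803 to 0.0341, positive at the latter value when wild-type replicate 3 was left out and at 0.0303 when KO replicate 2 was. Fabp5 against adipocyte markers came to -0.283 with wild-type replicate 3 left out, -0.0560 with KO replicate 1 and -0.149 with KO replicate 2 left out. Fabp5 to Fabp4 ranged from -0.527 (wild-type replicate 3 left out) to 0.150 (wild-type replicate 2 left out), and was 0.0080 without KO replicate 3.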

Other observations

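Regulators of lipoprotein lipase that are best known as liver products had low levels in this fat depot, and are named here after their values were seen. Apoc3, an inhibitor of the lipase, had 1.28, 1.26 and 0.860 CPM in wild type and 1.78, 1.72 and 2.56 CPM in KO (edgeR adjusted p = 0.175). Apoc2, the activator of the lipase, had 2.55, 2.85 and 1.29 CPM in wild type and 1.26, 1.23 and 1.22 CPM in KO, with every KO library below wild type (edgeR adjusted p = 0.208). Angptl8, which is also made in fat, had 3.35, 1.96 and 2.44 CPM in wild type and 4.19, 2.76 and 5.001 CPM in KO, with overlap.

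Markers of other cell types gave the following medians of log2 fold change, with 0 genes called in edgeR. The 7 tested brown and beige fat markers had 1.11, the 12 progenitor markers -0.40, the 12 mural cell markers 0.11, the 14 lymphocyte markers -0.57, the 4 tested epithelial markers -0.64 and the 15 macrophage markers -0.64. Of the 14 tested skeletal muscle markers, 12 were called higher, with a median of 9.39. Of the 15 macrophage markers, 10 had all KO libraries below wild type and 0 above, against 13.1% and 15.2% of all tested genes. Summed lymphocyte markers were 1861 to 1994 CPM in wild type and 1061, 2217 and 580 CPM in KO. Without KO replicate 2, edgeR called 13 of the 14 lymphocyte markers lower, where it called 1811 of 16656 tested genes lower.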
